A study of Mus musculus with 9 samples.

Results

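The transcripts described here encode the contents of cytotoxic granules and their inhibitors: the granzymes Gzma, Gzmb, Gzmk and Gzmm, the pore-forming protein perforin (Prf1), the granule proteoglycan serglycin (Srgn) and the serpins Serpinb9 and Serpinb6b. They were taken from the count table by gene symbol, and all 8 were found among its 26683 genes. The study sequenced RNA of regulatory T (Treg) cells sorted from spleen, which are CD4-positive and express the lineage factor Foxp3, seen here through a yellow fluorescent reporter. The 5 WT libraries came from B6N.Foxp3YFP-Cre mice and the 4 KO libraries from EsrrgNf/f.Foxp3YFP-Cre mice, 1 female mouse of 2 to 3 months each. Both groups carried Cre recombinase at Foxp3, so the floxed Esrrg gene, which encodes estrogen-related receptor gamma, was the labelled difference. Esrrg had 0 counts in all 9 libraries, so its loss could not be checked here, and any difference of colony between the 2 strains cannot be told apart from genotype.

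Cytotoxic lymphocytes store granzymes, which are serine proteases, on serglycin inside secretory granules. After release, perforin opens the target membrane and granzymes cleave proteins in the target cell, and serpins in the cytosol of the killer cell inactivate granzymes that leak from the granules. Serpinb9 is the classic inhibitor of granzyme B. Activated Treg cells are known to use granzyme B and perforin as one of several means of suppression.

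Total counts per library ran from 15269014 to 17425634. Treg markers were present in every library, with summed levels of Foxp3, Il2ra, Ctla4, Ikzf2, Cd4 and Cd3e of 4181 to 4392 CPM in WT (counts scaled to library size, with the trimmed mean of M values) and 4122 to 4404 CPM in KO. The KO libraries 1 and 4 stood apart from the others. Markers of plasma and B cells (6 of 6 detected) summed to 142 CPM in KO 1 and 485 CPM in KO 4, against 16.4 to 70.7 CPM in WT and 33.5 and 55.9 CPM in KO 2 and KO 3. Neutrophil markers (6 of 6 detected) summed to 38.7 CPM in KO 1 and 130 CPM in KO 4, against 1.93 to 5.45 CPM in WT and 1.73 and 6.17 CPM in KO 2 and KO 3. In KO 4 Mpo had 1495 counts, the most of this list, and Ly6g had 0. Xist, the RNA of the inactive X chromosome, had 27 counts in the library labelled KO 4 and 27355 to 35693 in the other 8, although all mice are labelled female. Summed over Uty, Kdm5d, Eif2s3y and Ddx3y, which lie on the Y chromosome, there were 2 counts in KO 4, 23 in WT 2 and 0 to 3 in the other 7 libraries. Several results that rest on KO 1 or KO 4 are therefore given with and without them.

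Granzyme B was the only one of these transcripts to pass edgeR's test between KO and WT. Of the 8 genes, 7 had enough counts to be tested, and 1 of these 7 passed an adjusted p of 0.05 in that quasi-likelihood test, against 3.28% of all 12738 genes tested. The 8 were chosen with earlier results of these data known. Gzma was tested only because its counts in KO were high enough and is therefore left out of the next counts. Among the other 6, which reached the count filter in every library, the KO libraries lay above all WT libraries for 1 gene, Gzmb, against 4.23% of all tested genes. The median log2 fold change (KO over WT) was 0.22 for these 6 genes and 0.0052 for all tested genes. In these bulk samples, more cells that carry a transcript and more of it per cell cannot be told apart.

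**Figure D1:**
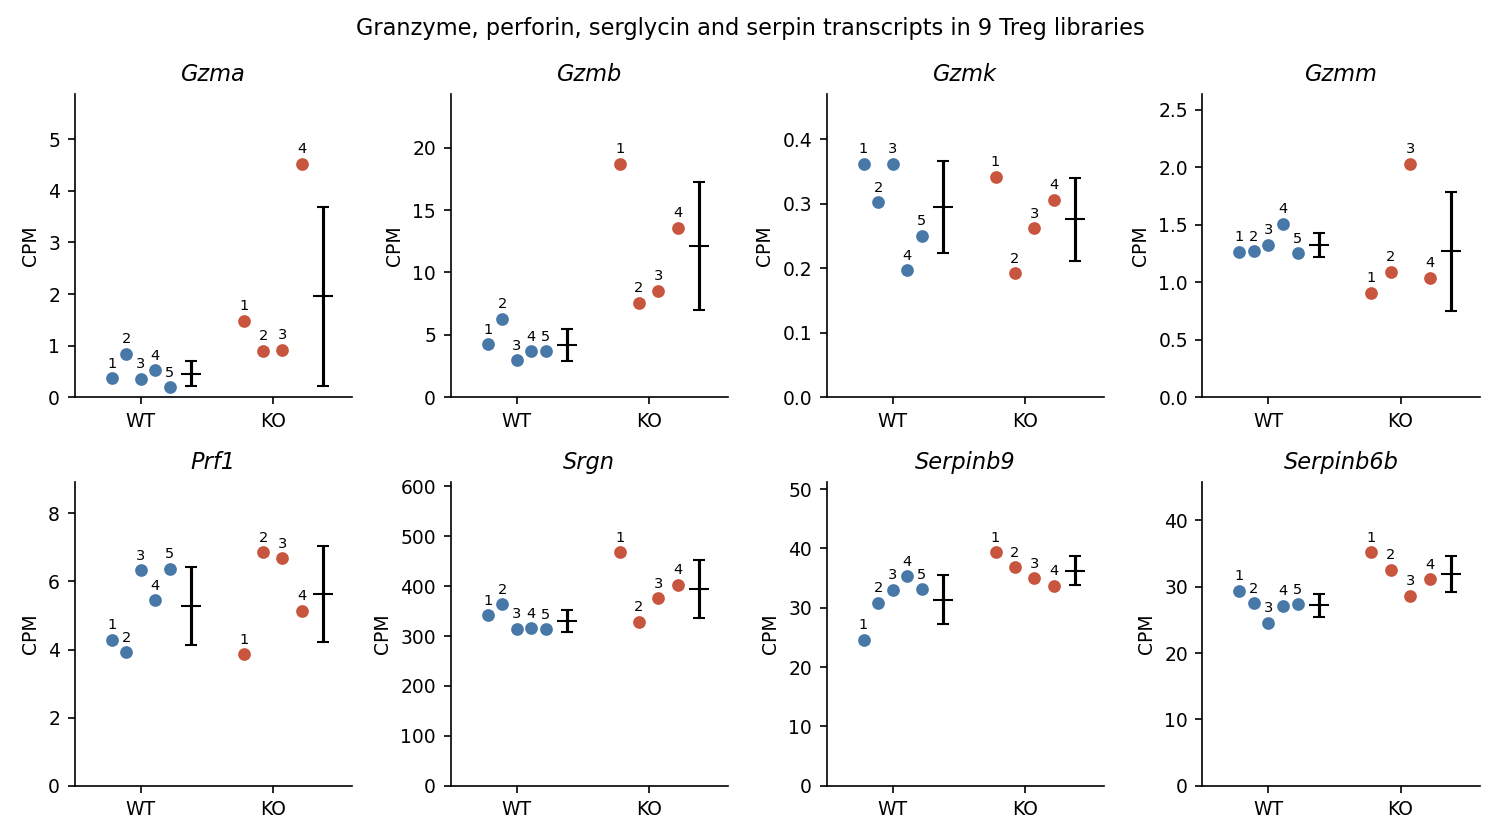
Level of each of the 8 transcripts (CPM, linear axes from 0) in the 5 WT (blue) and 4 KO (red) libraries, numbered by replicate, with the mean and SD of each group at its right. Gzmb was 2.96 to 6.28 CPM in WT and 7.57 to 18.7 CPM in KO, whereas Prf1, Gzmk and Gzmm overlapped between the groups.

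Gzmb (ENSMUSG00000015437.5, mm10, chromosome 14, 56258838 to 56262260, minus strand) encodes granzyme B, a protease that cuts after aspartate and activates caspases. Its counts in WT 1 to WT 5 were 70, 104, 49, 56 and 59, or 4.23, 6.28, 2.96, 3.68 and 3.69 CPM. In KO 1 to KO 4 they were 329, 118, 130 and 222, or 18.7, 7.57, 8.53 and 13.6 CPM. The groups did not overlap, yet KO 2 and KO 3 lay much nearer to WT 2 than to KO 1. In log2 units Gzmb rose by 1.54 ± 0.31 (SE, 95% interval 0.85 to 2.23, n = 5 and 4, edgeR adjusted p = 0.0334). Without KO 1 and KO 4, a choice made after seeing the data, the log2 fold change was 0.94 and the edgeR adjusted p 0.0926. The call held in 4 of the 9 fits that left out 1 library. The libraries whose removal ended it were KO 4 and, in WT, numbers 1, 3, 4 and 5, with edgeR adjusted p between 0.0697 and 0.0975. The log2 fold change over all 9 such fits stayed between 1.246 and 1.74. It also ended when genes with low counts were kept in the test (edgeR adjusted p = 0.0768).

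**Figure D2:**
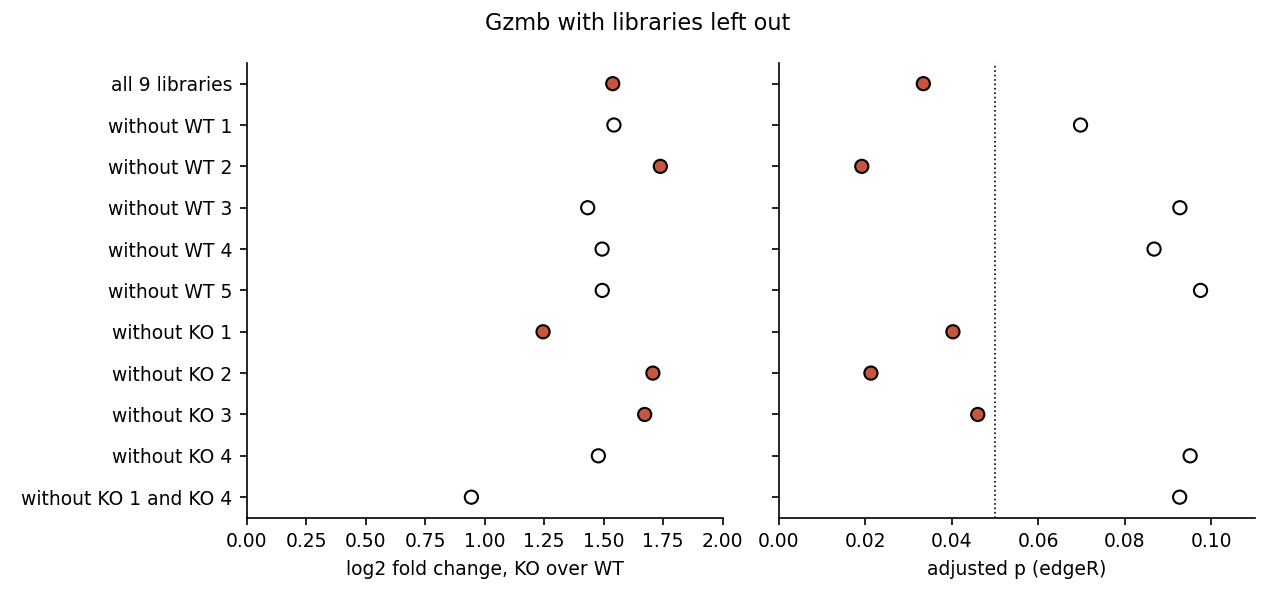
Log2 fold change of Gzmb (left) and its edgeR adjusted p (right, dotted line at 0.05) with all 9 libraries, with each library left out, and without KO 1 and KO 4 together; filled points passed. The fold change was smallest, at 0.94, without both KO 1 and KO 4, and WT 5 left out gave the largest adjusted p, 0.0975.

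Gzma (chromosome 13, 113093825 to 113100981, minus strand) encodes granzyme A, a tryptase-like granzyme. It was sparse, with 6, 14, 6, 8 and 3 counts in WT 1 to WT 5 and 26, 14, 14 and 74 in KO 1 to KO 4. KO 4 alone gave 74 of the 128 KO counts, and its level was 4.53 CPM against 0.898 to 1.48 CPM in the other KO libraries and 0.188 to 0.846 CPM in WT. The separation of the groups is narrow, since WT 2, KO 2 and KO 3 each had 14 counts (95% Poisson interval 7.65 to 23.5, counting error only). Its log2 fold change was the largest of the 7, 2.08 ± 0.57 (SE, 95% interval 0.81 to 3.35), and did not pass (edgeR adjusted p = 0.0763). Without KO 4 it was 1.26 (edgeR adjusted p = 0.176), and without KO 1 and KO 4 it was 0.98 (0.384). Gzma entered the test because all 4 KO libraries reached the count filter, which only 1 WT library did.

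The other granzymes showed no difference beyond their spread. Gzmm (chromosome 10, 79689020 to 79695261), whose protease prefers methionine, had 20 to 23 counts in each WT library and 16, 17, 31 and 17 counts in KO 1 to KO 4. Its WT libraries lay close together, with a coefficient of variation of 8.15% against 21.6% from counting error alone, while KO 3 stood above the rest at 2.03 CPM. The log2 fold change of Gzmm was -0.07 ± 0.26 (SE, 95% interval -0.62 to 0.49, edgeR adjusted p = 0.908), and its sign turned in 4 of 20 alternative fits. Gzmk (chromosome 13, 113171608 to 113225908), a tryptase-like relative whose gene lies 70.6 kb from Gzma with no protein-coding gene between them, had 3 to 6 counts in every library and was not tested. Its group means were 0.295 ± 0.0718 CPM (SD, n = 5) and 0.276 ± 0.0642 CPM (n = 4), so a difference was not detectable at this depth. Of the granzymes of the chromosome 14 cluster beside Gzmb, Gzmc was counted 12 to 40 times in each library and differed by 0.32 ± 0.32 on the log2 scale (SE, edgeR adjusted p = 0.585). Gzmf summed to 4 counts. Members of this family resemble each other, and how the counting treated shared reads is unknown here, so reads may have been split between copies.

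Prf1 (chromosome 10, 61297833 to 61304680, plus strand), the perforin gene, did not follow Gzmb. Its levels in WT 1 to WT 5 were 4.29, 3.93, 6.33, 5.45 and 6.38 CPM, and in KO 1 to KO 4 they were 3.87, 6.86, 6.69 and 5.14 CPM. The KO range enclosed the WT range. The lowest Prf1 of all libraries was in KO 1, which had the highest Gzmb, and the lowest in WT was in WT 2, which had the highest Gzmb in WT. The log2 fold change of Prf1 was 0.09 ± 0.20 (SE, 95% interval -0.34 to 0.52, edgeR adjusted p = 0.822). Its sign turned without KO 2.

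The relation of Gzmb to the other granule effectors was tested across the 9 libraries on log2 CPM, for the 2 pairs with Gzma and with Prf1. Gzmb values ran from WT into KO without a wide gap (6.28 CPM in WT 2, 7.57 CPM in KO 2). Gzmb and Gzma were high in the same libraries, with Pearson r = 0.847 (exact permutation p = 0.0028, 0.00561 adjusted over the 2 pairs) and Spearman rho = 0.9 (exact permutation p = 0.00203, adjusted 0.00406). With each group centred on its own mean, which removes the difference between genotypes, r was 0.599 (exact permutation within groups, adjusted p = 0.155). Without KO 1 and KO 4, the 2 libraries farthest from the median of Gzmb, r was 0.841 (exact permutation, adjusted p = 0.0552, n = 7). On linear CPM r was 0.645 (exact permutation, adjusted p = 0.207). By r the relation thus did not pass in these 3 settings. By rank it passed on linear CPM (rho = 0.9, exact permutation, adjusted p = 0.00406). It did not with centred groups (rho = 0.633, exact permutation within groups, adjusted p = 0.12) or without KO 1 and KO 4 (rho = 0.821, exact permutation, adjusted p = 0.0683).

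Gzmb and Prf1 had no relation that passed over all libraries, with r = -0.354 (exact permutation p = 0.343, adjusted 0.343) and rho = -0.25 (exact permutation p = 0.521, adjusted 0.521). Within the groups they ran in opposite directions. With each group centred on its mean, r was -0.933 and rho -0.883 (exact permutation within groups, adjusted p = 0.00278 and 0.0139). The groups hold 5 and 4 libraries, too few for an r of their own. Without KO 1 and KO 4 the centred r was -0.867 (exact permutation within groups, adjusted p = 0.0333, n = 7), although for rho of -0.857 the adjusted p was 0.0917, and the uncentred r was 0.0883 (exact permutation, adjusted p = 0.832, n = 7). Gzmb counts exceeded Prf1 counts in 5 of 9 libraries. Per kilobase of exon, the level of Gzmb was 0.84 to 2.88 times that of Prf1 in WT and 8.71, 1.98, 2.29 and 4.76 times in KO 1 to KO 4.

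**Figure D3:**
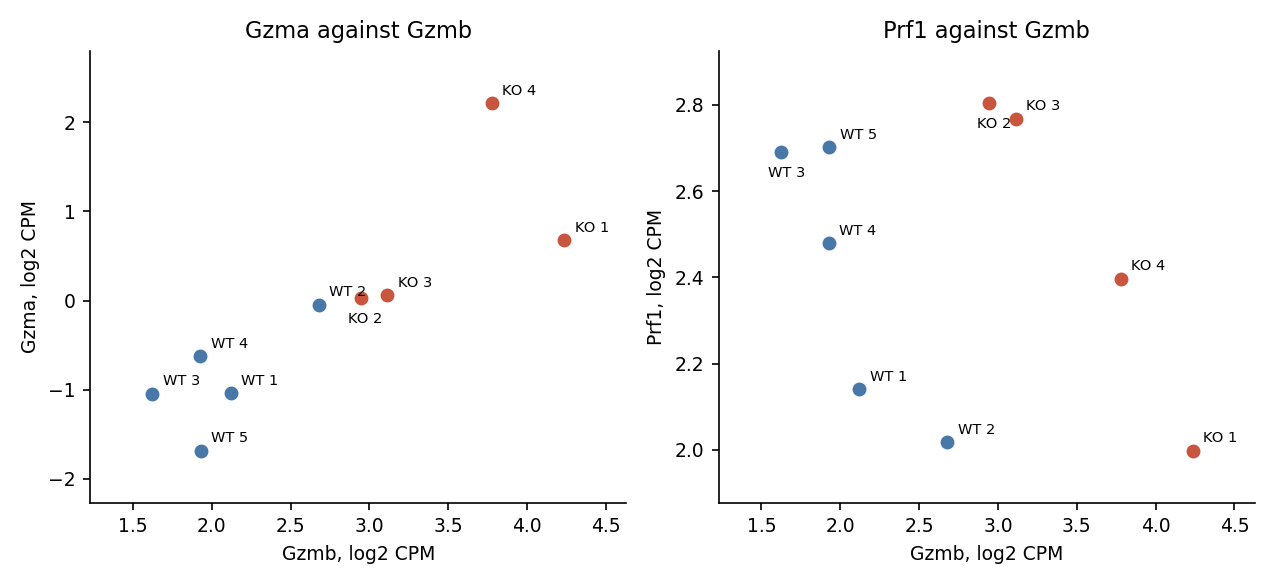
Gzma (left) and Prf1 (right) against Gzmb, all in log2 CPM, 1 point per library (blue WT, red KO). Gzma was high where Gzmb was high (r = 0.847), while for Prf1 the points of each genotype fall from upper left to lower right and the pooled r was -0.354.

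The sequences before these 3 genes are shown because the 3 transcripts encode partners in killing, of which Gzmb and Gzma were high in the same libraries and Prf1 was not. Each line gives the 250 bases upstream of the RefSeq start (GRCm38.p6, the same build as mm10), 5′ to 3′ on the strand of the gene. Capitals mark matches on either strand to the Runx core TGTGGT, the T-box core AGGTGT, the AP-1 motif TGANTCA and the CRE core TGACG, which are bound by factor families known from cytotoxic lymphocytes.
Gzmb (chr14:56262335-56262584, minus strand): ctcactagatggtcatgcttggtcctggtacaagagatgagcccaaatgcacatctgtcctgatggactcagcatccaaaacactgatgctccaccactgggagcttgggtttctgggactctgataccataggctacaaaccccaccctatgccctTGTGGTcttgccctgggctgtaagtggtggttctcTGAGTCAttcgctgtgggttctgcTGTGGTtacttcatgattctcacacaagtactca
Gzma (chr13:113100982-113101231, minus strand): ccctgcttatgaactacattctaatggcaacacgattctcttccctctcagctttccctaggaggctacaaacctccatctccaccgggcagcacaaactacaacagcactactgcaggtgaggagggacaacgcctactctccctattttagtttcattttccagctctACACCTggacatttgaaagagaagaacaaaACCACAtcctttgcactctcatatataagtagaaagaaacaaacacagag
Prf1 (chr10:61297586-61297835, plus strand): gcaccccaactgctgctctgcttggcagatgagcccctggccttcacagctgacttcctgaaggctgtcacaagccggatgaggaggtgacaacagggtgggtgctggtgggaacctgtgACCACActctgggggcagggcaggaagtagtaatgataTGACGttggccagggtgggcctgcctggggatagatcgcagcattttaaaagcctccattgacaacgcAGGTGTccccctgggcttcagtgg
All 3 windows hold a Runx core, once in Gzma and Prf1 and at 2 positions in Gzmb, and 14.0% of 32851 promoter windows of the same length hold one. The core was in 5 of the 10 windows of the 8 genes, also before Srgn and Gzmm. The AP-1 motif was found in the Gzmb window, 58 to 52 bases upstream, and in none of the windows of the other 7 genes (6.75% of all windows). The T-box core was found in Gzma, Prf1 and Gzmk but not in Gzmb (11.8% of all windows), and the CRE core in Prf1 and Srgn (17.8%). The STAT motif TTCNNNGAA (7.02% of all windows) and the nuclear receptor core AGGTCA (14.0%) were each found in 1 of the 10 windows of the 8 genes, both times before Gzmm. The estrogen-related receptor element TCAAGGTCA, which contains that core, was in none of the 10 windows and in 0.387% of all windows. These are matches of letters in a short window, not measured binding.

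Srgn (chromosome 10, 62493833 to 62527451, minus strand), whose proteoglycan packs granzymes in the granule and is also abundant in myeloid cells, was by far the most abundant of the 8. Its levels in WT 1 to WT 5 were 341, 364, 315, 315 and 314 CPM, and in KO 1 to KO 4 they were 468, 329, 375 and 403 CPM. KO 2 lay below WT 1 and WT 2, so the groups overlapped. The log2 fold change was 0.26 ± 0.09 (SE, edgeR adjusted p = 0.153), 0.09 without KO 1 and KO 4 (0.616). It passed without KO 2 (edgeR adjusted p = 0.0376) and by DESeq2 (adjusted p = 0.0464). Srgn was highest in the 2 libraries with the highest neutrophil marker sums, KO 1 (38.7 CPM) and KO 4 (130 CPM). KO 1 had more Srgn than KO 4, the reverse of the order of their sums. KO 3 had more Srgn than KO 2 and also the higher sum (6.17 against 1.73 CPM). In WT, the library with the most Srgn, WT 2, had the lowest sum (1.93 CPM). The part of other cells in the Srgn level was not tested.

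The serpin genes were slightly higher in KO on average but did not pass. Serpinb9 (chromosome 13, 33003250 to 33017957) was at 24.6, 30.9, 33.1, 35.3 and 33.1 CPM in WT 1 to WT 5 and at 39.4, 36.8, 35.0 and 33.7 CPM in KO 1 to KO 4. WT 1 was the low library, and KO 3 and KO 4 lay below WT 4. Its log2 fold change was 0.21 ± 0.09 (SE, edgeR adjusted p = 0.21). Serpinb6b (chromosome 13, 32965209 to 32979067), which inhibits granzyme A and lies 24.2 kb from Serpinb9, was at 29.4, 27.5, 24.6, 27.1 and 27.4 CPM in WT and 35.2, 32.6, 28.7 and 31.2 CPM in KO. Only KO 3 lay within the WT range. Its log2 fold change was 0.23 ± 0.07 (SE, edgeR adjusted p = 0.0834), with 0.17 to 0.28 over all 20 alternatives and none past the threshold. Among other serpins 5 of 18 listed genes were tested. In edgeR 0 of these passed, 3 had an unadjusted p under 0.05 (21.6% of all tested genes did), and 0 passed by DESeq2 (7.84% of all genes given an adjusted p did) or limma-voom (2.72%). The ones with the smallest p were Serpine2, a protease nexin (log2 fold change -0.76, edgeR adjusted p = 0.0825), and Serpinb1a, an inhibitor of neutrophil proteases (0.67, adjusted p = 0.182).

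**Figure D4:**
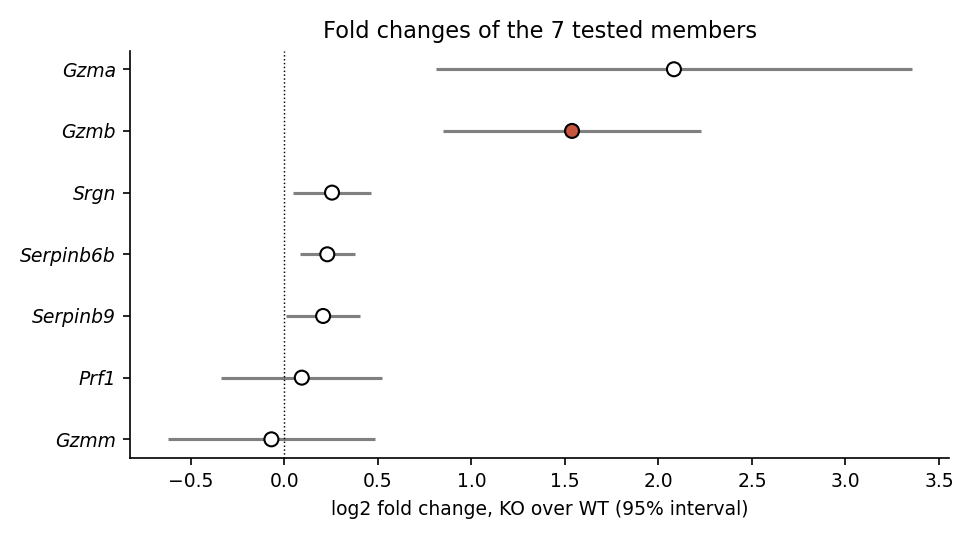
Log2 fold change (KO over WT) with its 95% interval for the 7 tested genes; the filled point passed the adjusted p of 0.05. Gzma (2.08) and Gzmb (1.54) had the largest values, and the intervals of Prf1 and Gzmm spanned 0.

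Levels were compared between the genes per kilobase of exon. In WT, Srgn was at 150 ± 10.1 CPM per kilobase (SD, n = 5), Serpinb6b at 12.03 ± 0.756 and Serpinb9 at 8.98 ± 1.17. Gzmb followed at 2.90 ± 0.882 and Prf1 at 2.04 ± 0.44 CPM per kilobase, with overlapping ranges. The lowest were Gzmm at 0.9 ± 0.0733, Gzma at 0.454 ± 0.247 and Gzmk at 0.212 ± 0.0517 CPM per kilobase. In KO the range of Gzmb, 5.27 to 13.04 CPM per kilobase, lay above that of Prf1 (at most 2.66). Only KO 1 reached the range of Serpinb9 (9.65 to 11.3), and Gzmb in KO 4 was at 9.46.

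In the wider granule pathway, 3 of 15 tested genes for granule contents and granzyme activation rose, against 1.4% of all tested genes in that direction. The pathway lists, here and below, were chosen with earlier results of these data known, so such a count is no independent support. Calr, which encodes calreticulin, a chaperone that also binds perforin, went from 455 ± 34.9 CPM (SD, n = 5) to 575 ± 20.3 CPM (n = 4), a log2 fold change of 0.34 (edgeR adjusted p = 0.00899). Lamp2, a lysosomal membrane protein, changed by 0.28 (adjusted p = 0.0272) and M6pr, a mannose 6-phosphate receptor that sorts lysosomal enzymes, by 0.25 (adjusted p = 0.0289). In all 3 the groups did not overlap. KO 1 and KO 4 were the highest libraries for Lamp2 and M6pr, and without them the edgeR adjusted p was 0.0669 for Calr, 0.24 for Lamp2 and 0.205 for M6pr. Calr passed in 9 of the 9 fits that left out 1 library, M6pr in 4 and Lamp2 in 3. The part of plasma cell transcripts in these values was not tested.

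Genes for granule exocytosis had 0 of 18 past in edgeR, 3 at an unadjusted p under 0.05 (21.6% of all tested genes) and 0 by DESeq2 or limma-voom, with Arl8b, a lysosome-positioning GTPase, at 0.13 (adjusted p = 0.0716) and Vamp8 at 0.10 (0.225). Regulators of granzyme genes had 0 of 21 past in edgeR and 7 at an unadjusted p under 0.05. DESeq2 called 3 of them, limma-voom 0 and limma-voom with sample weights 4, against 7.84%, 2.72% and 6.13% of all genes. The smallest p in edgeR belonged to the transcription factor genes Batf at 0.33 (adjusted p = 0.0821) and Prdm1, which encodes Blimp-1, at 0.44 (0.0842). Prdm1 is also a plasma cell gene. Its levels were 34.0, 22.2, 31.2 and 35.4 CPM in KO 1 to KO 4, against 19.6 to 24.6 CPM in WT. The part of plasma cells in these levels was not tested. Among intracellular substrates of granzymes, a list also chosen with earlier results known, 2 of 17 rose, against 1.4% of all tested genes in that direction. They were the topoisomerase gene Top1 (0.19, edgeR adjusted p = 0.0413) and the nuclease and kinase gene Nme1 (0.30, adjusted p = 0.0482). The groups did not overlap for Top1 and did for Nme1. Each of these 2 passed in 2 of the 9 fits without 1 library, and neither passed without KO 1 and KO 4 (edgeR adjusted p = 0.0802 for Top1 and 0.131 for Nme1). Of the 17 genes, limma-voom called 0 and DESeq2 3.

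The 2 libraries with the most Gzmb, KO 1 and KO 4, also had the most cell cycle transcripts. The 6 cell cycle markers, Mki67, Top2a, Ccnb1, Cdk1, Mcm5 and Pcna, summed to 712 CPM in KO 1 and 816 CPM in KO 4, against 398 and 452 CPM in KO 2 and KO 3. In WT the sum was 524 CPM in WT 2, the WT library with the most Gzmb, and 292 to 355 CPM in the others. In edgeR 0 of the 6 passed and 4 had an unadjusted p under 0.05 (21.6% of all tested genes did). Mcm5 passed by DESeq2 and by limma-voom with sample weights, against 7.84% and 6.13% of all genes. An unadjusted edgeR p under 0.05 was also found for 3 of 4 tested plasma and B cell markers, 2 of 3 neutrophil and 2 of 4 natural killer list markers. It was found for 2 of 6 Treg, 1 of 2 plasmacytoid dendritic cell, 0 of 1 CD8 T cell and 0 of 7 macrophage markers. The natural killer cell gene Ncr1 had 0 to 4 counts per library, and the summed list (8 of 8 detected, mostly Txk, which T cells express too) was 91.0 to 107 CPM in WT and 79.5 to 97.9 CPM in KO. Without Txk, a choice made after seeing the data, the other 7 genes summed to 5.01 to 7.85 CPM in WT and to 8.65, 8.79, 6.49 and 8.20 CPM in KO 1 to KO 4. Among them, and picked out after their values were seen, the receptor gene Klrb1c had 122 counts in KO 1 against 61 to 82 elsewhere. Cd244 had 37 counts in KO 4 against 4 to 23. Other values went the other way, with Klrb1c lowest in KO 4 (61 counts) and Txk lowest there too (1165 counts). Klrd1 was highest in KO 2, with 28 counts against 3 to 18 elsewhere, and had 8 in KO 1. The receptor gene Klri2 had 11 counts in KO 4 and at most 1 in any other library. Cd8a had 4 to 10 counts per library. Markers of mast cells and basophils, which can also carry granzymes, summed to 4.90 CPM in KO 4 and 2.28 CPM in KO 1, against at most 1.45 CPM in every other library. Macrophage markers (7 of 7 detected) summed to 66.6 CPM in KO 1 and 97.8 CPM in KO 4, against 17.38 and 27.5 CPM in KO 2 and KO 3 and 20.1 to 45.9 CPM in WT. The plasmacytoid dendritic cell gene Siglech had 0 to 9 counts, and its list summed to 172 to 189 CPM in WT and 146 to 181 CPM in KO, mostly from Pacsin1. The part of cell division or of other cells in the Gzmb level was not tested.

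**Figure D5:**
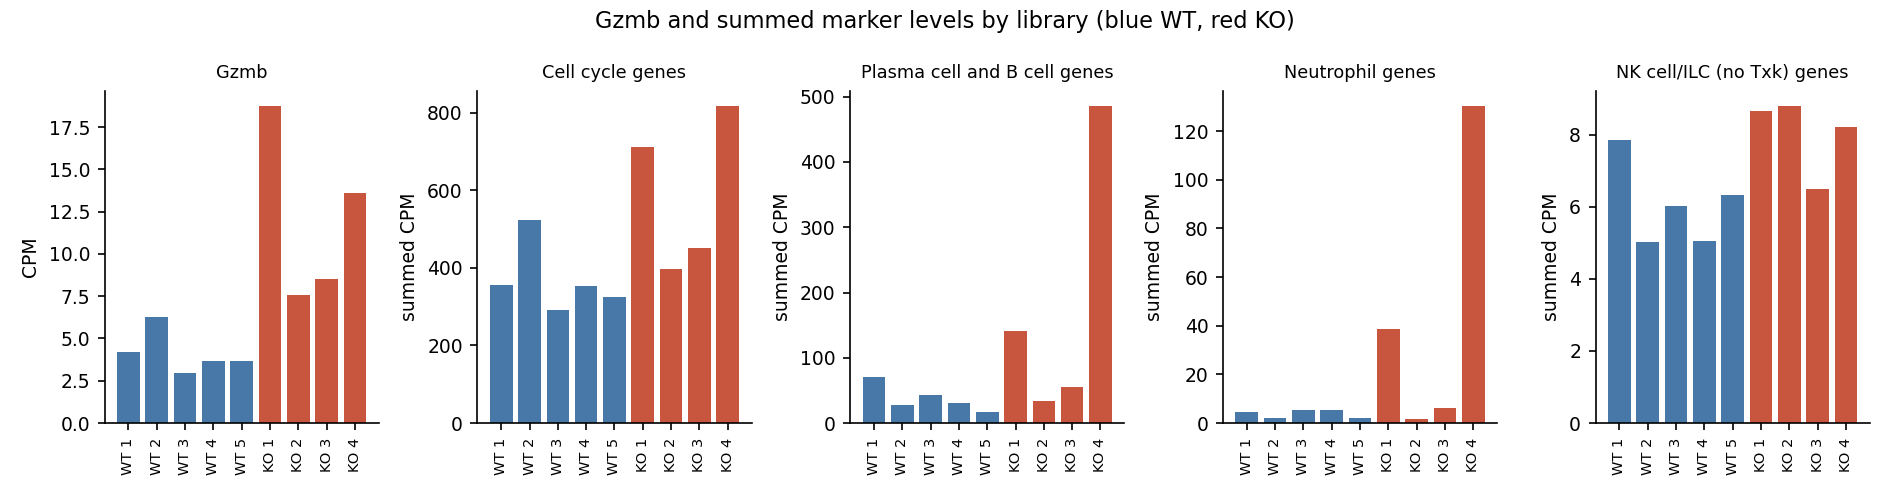
Gzmb (CPM) and the summed CPM of markers of the cell cycle, plasma and B cells, neutrophils, and natural killer (NK) and innate lymphoid cells (ILC, without Txk) in each library; bars start at 0. KO 1 and KO 4 were highest in the first 4 panels, and in the last KO 1, KO 2 and KO 4 (8.20 to 8.79 CPM) lay above every WT library (at most 7.85 CPM).

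Across the 9 libraries, the genes whose log2 CPM followed Gzmb most closely, among 10166 named genes with a mean of at least 2 CPM, were Bak1 (r = 0.99), Acot7 (0.989), Pglyrp1 (0.984), Csf1 (0.98) and S100a10 (0.978). Bak1 encodes a pro-apoptotic protein of the mitochondrial outer membrane, and Acot7 an acyl-CoA thioesterase. Of these 5 genes 4 were themselves called between KO and WT, and r over all libraries includes that difference. With each group centred on its mean the closest were Acot7 (0.979), Ehd1 (0.978), Fanci (0.97), Mcm3 (0.968) and Cela1 (0.967), of which 0 were called. Fanci and Mcm3 act in DNA repair and replication. For the other genes the closest over all libraries were Tmed5 for Gzma (r = 0.981), Kcnf1 for Prf1 (0.969), Hif1a for Srgn (0.987), Tmem173 for Serpinb9 (0.985), Gjb2 for Serpinb6b (0.967), Sumo2 for Gzmm (0.94) and Cnpy3 for Gzmk (0.927). These values are the highest of many over 9 libraries and describe likeness in these samples only. They were not repeated without KO 1 and KO 4.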

How the data were processed

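Libraries were made from total RNA of single mice with Illumina's stranded TruSeq chemistry (labels' protocols). The authors deposited values per gene symbol, 1 column per library. That these values are counts was taken from the name under which they were deposited. STAR 2.7, DESeq2 and mm10 are named in the submitters' processing notes; which program counted reads, on which annotation and with which strand setting is not known here. All 9 columns matched a sample title.

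Genes that passed edgeR's expression filter (12738, by group, minimum count 10) entered edgeR 4.0.16 under R 4.3.3 (trimmed-mean scaling, robust quasi-likelihood test, Benjamini-Hochberg adjustment over all tested genes, threshold 0.05). The fit was tested on simulated data. Log2 CPM used a prior count of 2. Exon lengths and positions came from GENCODE M21. The closest libraries, WT 4 and WT 5, differed by a chi-square of 2.34 per degree of freedom, so none was a duplicate. Correlations used two-sided exact permutation of the pairings.

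The members, pathway lists and marker lists were chosen with earlier results of these data known. Named genes were the 8 members, up to 6 called genes of each list (or the 2 with the smallest p), and the closest genes by r, leaving out unnamed gene models and antigen receptor segments. Alternatives were other scalings and filters, DESeq2 1.42.0, limma-voom (limma 3.58.1) with and without sample weights, replicate blocks, a prior count of 0.5, linear CPM, centring of each group, and leaving out libraries. Intervals cover counting error or replicate spread only.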

Additional observations from a re-analysis of the deposited data

Results flagged for a closer look

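Xist in KO met the criterion for a sample far from the others. KO 4 was at 1.65 CPM and the other 3 KO libraries at 1755 to 2032 CPM, and the gap on the log2 CPM scale was 0.979 of the range of the group, above Dixon's critical value for 4 samples. None of the 8 granule and serpin genes met this criterion in either group. In all 18 groups of values were examined, and chance gives about 1 in 20.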

How the results depend on the processing

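The number of genes called between KO and WT, 418 in all, was 919 by DESeq2, 781 by limma-voom with sample weights, 26 with a replicate block on the title numbers and 118 without KO 1 and KO 4, and 97 to 697 when 1 library was left out (WT 3 gave 97, WT 4 gave 134, WT 5 gave 117, KO 3 gave 182, KO 4 gave 103 and WT 2 gave 697). The log2 fold change of Gzmb was 1.54 without the count filter (edgeR adjusted p = 0.0768), 1.46 with the replicate block (0.182) and 0.94 without KO 1 and KO 4 (0.0926), and 1.246 to 1.74 with 1 library left out. It passed under the other 3 scalings, with a filter on mean CPM (at least 1), and by DESeq2 and both limma-voom fits. For title numbers 1 to 4, correlations of deviations from the group means were 0.0758, -0.157, 0.146 and -0.0976. They gave no sign that these numbers pair the libraries, since WT 1 and KO 4, of unlike numbers, reached 0.283. So few values cannot exclude a pairing. A block on the bracketed library numbers, chosen after seeing the data, called 456 genes and put Gzmb at 1.67 (edgeR adjusted p = 0.00419). Each block fit also left out the WT library whose number no KO library had. This was WT 5 for the title numbers and WT 2 for the bracketed numbers. Without a block, leaving out WT 5 gave 117 genes and Gzmb at 1.49 (edgeR adjusted p = 0.0975). Leaving out WT 2 gave 697 genes and Gzmb at 1.74 (0.0192). The part of blocking in these changes was not tested. For those numbers the correlations were 0.0758, 0.112, 0.155 and -0.2901, likewise with no clear sign of pairing.

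The correlation of Gzmb with Gzma was 0.645 on linear CPM, 0.599 with centred groups, 0.679 with centred groups without KO 1 and KO 4, and 0.841 without KO 1 and KO 4, which are also the 2 libraries farthest from the median, and 0.836 to 0.908 with 1 library left out. That of Gzmb with Prf1 was -0.933 with centred groups, -0.867 with centred groups without KO 1 and KO 4, 0.0883 without KO 1 and KO 4, and -0.484 to -0.0347 with 1 library left out. The log2 fold change of Gzmm turned to 0.016 with sample weights and 0.23 without KO 1 and KO 4, and was -0.39 to 0.062 with 1 library left out. That of Prf1 turned to -0.0079 with the bracketed number as a block and was -0.015 to 0.24 with 1 library left out. For Gzma, Serpinb9 and Serpinb6b all 20 alternatives kept the higher direction without passing, DESeq2 giving no adjusted p for Gzma. The cause of these changes was not tested. At 3 to 6 counts per library Gzmk was not tested, and counting error alone gave a coefficient of variation of 36.8% for Gzma in WT and 22.2% for Gzmm in KO.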

Other observations

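Granzyme B made up a varying share of the counts of the 6 granzymes in the table (Gzma, Gzmb, Gzmc, Gzmf, Gzmk and Gzmm). The share was 42.6% in WT 3 (95% Wilson interval 34.0 to 51.7), 49.6% in WT 5 (40.8 to 58.4), 50% in WT 4 (40.9 to 59.1), 58.3% in WT 1 (49.4 to 66.8) and 66.2% in WT 2 (58.5 to 73.2). It was 80.4% in KO 1 (76.3 to 84.0), 70.2% in KO 2 (62.9 to 76.6), 63.1% in KO 3 (56.3 to 69.4) and 61.8% in KO 4 (56.7 to 66.7). KO 3 and KO 4 lay within the WT range of this share, and KO 4 had the most Gzma counts of all libraries (74). The summed level of the 6 granzymes was 6.94 to 9.49 CPM in WT and 10.8 to 23.3 CPM in KO.

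For each Gzmb count there were 4.91 to 11.2 counts of its inhibitor Serpinb9 in WT, and 2.10, 4.86, 4.10 and 2.48 in KO 1 to KO 4. The WT and KO ranges of this ratio were separated by the narrow step between WT 2 (4.91) and KO 2 (4.86). Counts of Srgn per Gzmb count were 57.9 to 107 in WT and 25.01 to 44.03 in KO. These ratios rest mainly on Gzmb and were not tested.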
